A study of Mus musculus with 8 samples.

Results

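The neutrophil granule transcripts are 10 genes that encode the proteins stored in the granules and cytosol of neutrophils and their precursors: Elane, Mpo, Prtn3, Ctsg, S100a8, S100a9, Ngp, Camp, Ltf and Lcn2. They were chosen by their lower level in the libraries labelled knockout, so the direction of their group difference was fixed by the choice and is given here as a description with no test. All 10 were found among the 55487 genes of the count table, and all 10 were among the 18884 genes that passed the filter on low counts.

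The series holds 8 mouse libraries whose label is pro-B cell, 4 with the genotype CD25_KO and 4 with the genotype WT, and it compared the cells with and without CD25. Il2ra encodes CD25, which binds interleukin-2 as one of the receptor's chains. The labels used here do not give the allele, strain, age or sort gate, and they do not say whether a group's libraries are of different animals, so a p-value reflects only how far libraries differ, in part perhaps for technical reasons.

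Neutrophils mature in the bone marrow through stages that can be read from their granules. Promyelocytes make the primary (azurophil) granules, which hold myeloperoxidase and the serine proteases. Myelocytes and metamyelocytes make the secondary (specific) granules, which hold lactoferrin and the cathelicidin, and S100a8 and S100a9 form calprotectin, an abundant cytosolic protein of myeloid cells. Pro-B cells are not known as a source of these proteins, and neutrophils are abundant in marrow. In bulk RNA, fewer cells of a type and less RNA per cell cannot be told apart.

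Promoter sequences are shown for 3 primary and 3 secondary granule genes, since these classes were not low to the same degree in CD25_KO library 3, as given below. Windows of 250 bases before to 50 bases after each annotated start were taken from RefSeq on GRCm38.p6, in which all 10 genes had an entry. Capitals mark matches on either strand to 4 short motifs, those read by PU.1, C/EBP and RUNX factors and the TATA box, whose letters are given beside the counts that follow.
Elane, chr10:79886062-79886361 (+ strand): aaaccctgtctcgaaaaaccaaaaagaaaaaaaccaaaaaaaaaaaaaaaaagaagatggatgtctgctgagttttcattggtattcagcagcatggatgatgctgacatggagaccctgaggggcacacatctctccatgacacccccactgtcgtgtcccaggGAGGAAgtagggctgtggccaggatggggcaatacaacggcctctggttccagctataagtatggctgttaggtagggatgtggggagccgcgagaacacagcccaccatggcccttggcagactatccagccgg
Mpo, chr11:87793534-87793833 (+ strand): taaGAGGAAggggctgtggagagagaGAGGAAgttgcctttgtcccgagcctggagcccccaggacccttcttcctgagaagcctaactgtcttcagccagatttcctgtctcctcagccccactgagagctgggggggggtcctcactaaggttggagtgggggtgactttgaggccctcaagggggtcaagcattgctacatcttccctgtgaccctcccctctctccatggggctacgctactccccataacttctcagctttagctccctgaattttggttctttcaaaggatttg
Prtn3, chr10:79879417-79879716 (+ strand): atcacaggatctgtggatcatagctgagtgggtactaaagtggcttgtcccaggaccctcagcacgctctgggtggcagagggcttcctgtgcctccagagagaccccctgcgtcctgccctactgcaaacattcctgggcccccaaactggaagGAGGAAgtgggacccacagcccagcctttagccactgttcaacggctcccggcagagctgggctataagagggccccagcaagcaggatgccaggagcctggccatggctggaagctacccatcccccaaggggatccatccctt
Ngp, chr9:110419558-110419857 (+ strand): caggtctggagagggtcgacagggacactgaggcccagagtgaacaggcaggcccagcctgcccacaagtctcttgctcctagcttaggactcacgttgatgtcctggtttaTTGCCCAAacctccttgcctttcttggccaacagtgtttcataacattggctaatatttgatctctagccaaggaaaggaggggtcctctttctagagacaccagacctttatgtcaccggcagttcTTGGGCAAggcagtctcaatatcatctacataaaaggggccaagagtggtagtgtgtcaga
Ltf, chr9:111019042-111019341 (+ strand): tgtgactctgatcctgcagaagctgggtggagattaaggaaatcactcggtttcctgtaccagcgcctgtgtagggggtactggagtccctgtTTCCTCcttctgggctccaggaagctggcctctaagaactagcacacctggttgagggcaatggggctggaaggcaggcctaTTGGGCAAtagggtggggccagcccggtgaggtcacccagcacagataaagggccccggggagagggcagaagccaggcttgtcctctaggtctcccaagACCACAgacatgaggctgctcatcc
Lcn2, chr2:32387690-32387989 (- strand): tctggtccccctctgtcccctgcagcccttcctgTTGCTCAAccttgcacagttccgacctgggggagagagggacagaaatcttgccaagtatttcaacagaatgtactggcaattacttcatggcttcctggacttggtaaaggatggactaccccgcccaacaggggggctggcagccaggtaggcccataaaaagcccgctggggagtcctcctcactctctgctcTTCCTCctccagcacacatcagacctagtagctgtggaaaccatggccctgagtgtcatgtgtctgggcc
The PU.1 motif, GAGGAA on either strand, was present in all 4 primary granule windows (Elane, Mpo, Prtn3 and Ctsg), and in those of S100a8, Ltf and Lcn2, against 28.3% of the 32851 windows of the same length in the table. In Elane the match began 85 bases before the start and in Prtn3 95 bases before it. The C/EBP motif, TTGCNNAA, was absent from the 4 primary granule windows and present in 4 others (S100a9, Ngp, Ltf and Lcn2), against 10.8% of all windows, and Ngp held it in both orientations. The RUNX motif, TGTGGT, was found in 3 windows (Ctsg, S100a9 and Ltf) against 16.8% of all. The TATA box, TATAAA, was found in 3 (Ctsg, S100a8 and S100a9) against 13.6%. The Camp window held none of the 4. In the S100a8 window a PU.1 match and the TATA box lie side by side, and no matches overlap in any of the 10. A match is a description of the letters only.

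Library totals lay between 43974037 and 57988772 counts. The genotype labels could not be checked by Il2ra, and several libraries stand apart. Il2ra was not lower in the libraries labelled CD25_KO: TMM-scaled CPM, the counts relative to library size, were 200.2, 216.4, 215.6 and 140.4 in WT libraries 1 to 4 and 144.7, 168.3, 243.7 and 168.3 in CD25_KO libraries 1 to 4 (edgeR log2 fold change −0.09 ± 0.19 SE, Benjamini-Hochberg adjusted p = 0.849), and counts over the whole gene cannot show which part of it is deleted. Directions below therefore refer to libraries labelled CD25_KO. Y-linked genes summed to more than 5 CPM in WT library 2 and CD25_KO libraries 2 and 4, and WT library 2 also carried Xist at 60.02 CPM, against 370 to 482 CPM in the other WT libraries. Of the pro-B cell markers, Cd79b had the highest counts at 3006 to 3688 CPM in WT and 3073 to 3586 CPM in CD25_KO libraries, and Kit stood at 0.70 to 3.20 CPM over all 8. For the granule transcripts, CD25_KO libraries 1 and 3 were the low ones, and the group differences, list medians and correlations are given with and without them.

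Summed over the 10 genes, the granule transcripts made up 252, 551, 280 and 324 CPM in WT libraries 1 to 4 and 171, 475, 117 and 291 CPM in CD25_KO libraries 1 to 4. CD25_KO library 2 was higher than 3 of the 4 WT libraries and CD25_KO library 4 higher than WT libraries 1 and 3, while CD25_KO libraries 1 and 3 were below all 4. Per kilobase of exon, the order of mean levels over the 8 libraries was S100a9 (124 CPM per kb), S100a8 (82.1), Ngp (64.5), Camp (39.8), Ltf (10.2), Lcn2 (8.73), Elane (6.29), Mpo (2.17), Ctsg (2.01) and Prtn3 (1.68). Neighbours in this order kept it in 8 of 8 libraries for S100a9 over S100a8, Ngp over Camp, Camp over Ltf and Elane over Mpo, and in 7 for S100a8 over Ngp, Ltf over Lcn2 and Lcn2 over Elane. Mpo over Ctsg and Ctsg over Prtn3 held in 4 of 8 each, so these 3 genes could not be ordered.

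**Figure D1:**
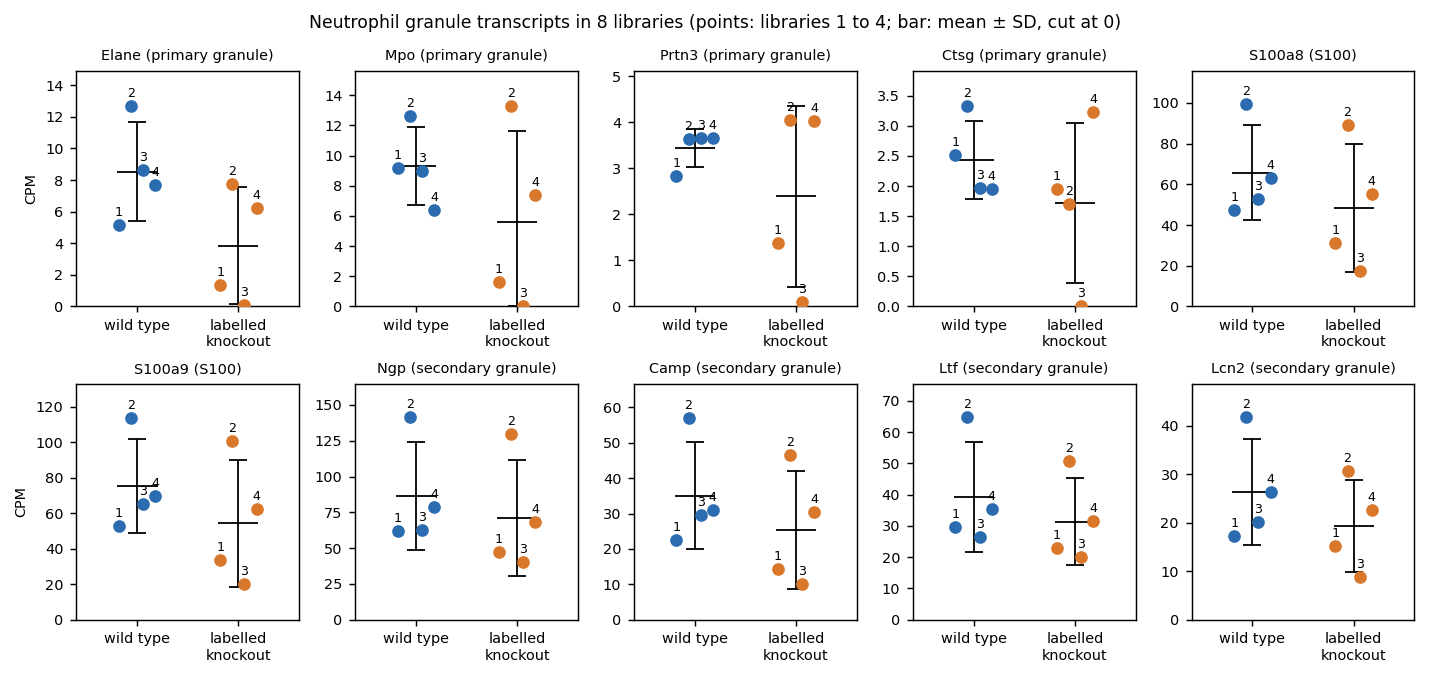
CPM (vertical axes, linear from 0) of each granule transcript in WT (blue) and labelled CD25_KO (orange) libraries; points are libraries numbered 1 to 4 and bars the mean ± SD of 4, cut at 0. CD25_KO library 3 is the lowest point in 10 of 10 panels, and WT library 2 is the highest in 8.

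Among the primary granule genes, Elane, which encodes neutrophil elastase, had the widest group difference. Elane (ENSMUSG00000020125.7, chr10:79886247-79888215, + strand, mm10) stood at 5.13, 12.7, 8.61 and 7.67 CPM in WT libraries 1 to 4 and at 1.34, 7.75, 0.100 and 6.20 CPM in CD25_KO libraries 1 to 4. CD25_KO libraries 2 and 4 lay inside the WT range, and libraries 1 and 3 below it. The means were 8.53 ± 3.14 and 3.85 ± 3.70 CPM (SD, n = 4 each), a log2 fold change of −1.14 ± 0.84 (SE). CD25_KO library 3 held 5 Elane counts, whose exact Poisson 95% interval spans 0.0325 to 0.234 CPM and covers counting error only. The mean of WT was 85.1-fold the level of that library.

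Mpo encodes myeloperoxidase, which makes hypochlorous acid. Mpo (ENSMUSG00000009350.13, chr11:87793581-87804413, + strand) stood at 9.16, 12.6, 8.97 and 6.38 CPM in WT libraries 1 to 4 and at 1.61, 13.3, 0 and 7.35 CPM in CD25_KO libraries 1 to 4. CD25_KO library 2 was the highest of all 8 for this gene. In CD25_KO library 3 no count was found. A limit of 3 counts, or 0.0601 CPM, was set for 0 counts, and the WT mean was 155-fold that limit. The exact Poisson 95% interval of 0 counts, which covers counting error only, reaches 0.0739 CPM. The means were 9.29 ± 2.57 and 5.56 ± 6.04 CPM, a log2 fold change of −0.74 ± 0.99.

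Prtn3 encodes proteinase 3, and its span ends 3073 bases from the start of Elane. Prtn3 (ENSMUSG00000057729.12, chr10:79874476-79883174, + strand) stood at 2.82, 3.63, 3.66 and 3.66 CPM in WT libraries 1 to 4 and at 1.38, 4.05, 0.100 and 4.02 CPM in CD25_KO libraries 1 to 4. CD25_KO libraries 2 and 4 were above all 4 WT libraries, and libraries 1 and 3 below them. The means were 3.44 ± 0.414 and 2.39 ± 1.97 CPM, a log2 fold change of −0.52 ± 0.71. The gene span overlaps Plppr3 on the opposite strand (mean 4.105 CPM), and without a strand setting reads in the overlap cannot be told apart.

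Ctsg encodes cathepsin G, the third serine protease of the primary granule shown here. Ctsg (ENSMUSG00000040314.2, chr14:56099881-56102574, − strand) stood at 2.51, 3.33, 1.96 and 1.95 CPM in WT libraries 1 to 4 and at 1.96, 1.70, 0 and 3.23 CPM in CD25_KO libraries 1 to 4. Only CD25_KO libraries 2 and 3 were below every WT library, a different pair from that of the other primary granule genes. With 0 counts in CD25_KO library 3, the WT mean was 40.6-fold the limit of 3 counts there, and the exact Poisson 95% interval reaches 0.0739 CPM. The means were 2.44 ± 0.649 and 1.72 ± 1.33 CPM, a log2 fold change of −0.50 ± 0.81.

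The calprotectin genes varied as a pair over the libraries. S100a8 (ENSMUSG00000056054.9, chr3:90668978-90670035, + strand) stood at 47.6, 99.3, 52.6 and 63.0 CPM in WT libraries 1 to 4 and at 31.3, 89.3, 17.4 and 55.3 CPM in CD25_KO libraries 1 to 4. S100a9 (ENSMUSG00000056071.12, chr3:90692632-90695721, − strand), which lies 22597 bases away, stood at 52.7, 113.7, 65.0 and 69.6 CPM in WT and at 33.5, 100.8, 19.996 and 62.4 CPM in CD25_KO libraries. The ratio of S100a8 to S100a9 stayed between 0.808 and 0.934 over the 8 libraries. For both genes, libraries 1 and 3 of CD25_KO were below every WT library and libraries 2 and 4 inside the WT range. The log2 fold changes were −0.44 ± 0.44 for S100a8 and −0.47 ± 0.44 for S100a9, with means of 65.6 ± 23.4 against 48.3 ± 31.5 CPM and 75.3 ± 26.6 against 54.2 ± 35.8 CPM.

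Of the secondary granule genes, Ngp, Camp and Ltf lie on chromosome 9, with 570 kb between Ngp and Camp and 596 kb between Ngp and Ltf. Ngp encodes neutrophilic granule protein (ENSMUSG00000032484.8, chr9:110419747-110423012, + strand) and stood at 62.2, 141.5, 62.8 and 78.7 CPM in WT libraries 1 to 4 and at 47.5, 129.5, 40.2 and 68.1 CPM in CD25_KO libraries 1 to 4. Its log2 fold change, −0.28 ± 0.39 (means 86.3 ± 37.6 and 71.3 ± 40.5 CPM), was the smallest of the 10. Camp encodes the cathelicidin antimicrobial peptide (ENSMUSG00000038357.10, chr9:109847379-109849617, − strand). It stood at 22.4, 57.1, 29.7 and 31.0 CPM in WT and at 14.2, 46.6, 9.998 and 30.4 CPM in CD25_KO libraries (means 35.0 ± 15.2 and 25.3 ± 16.7 CPM, log2 fold change −0.47 ± 0.46). In both genes WT library 2 and CD25_KO library 2 were the highest of their groups, and the groups overlapped.

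Ltf encodes lactoferrin, an iron-binding protein (ENSMUSG00000032496.7, chr9:111019271-111042767, + strand). It stood at 29.8, 64.9, 26.4 and 35.3 CPM in WT libraries 1 to 4 and at 23.1, 50.9, 19.9 and 31.6 CPM in CD25_KO libraries 1 to 4 (means 39.1 ± 17.6 and 31.3 ± 13.9 CPM, log2 fold change −0.32 ± 0.35). Lcn2 encodes lipocalin-2, which binds bacterial siderophores (ENSMUSG00000026822.14, chr2:32384633-32388252, − strand). It stood at 17.3, 41.8, 20.2 and 26.4 CPM in WT and at 15.3, 30.7, 8.80 and 22.6 CPM in CD25_KO libraries (means 26.4 ± 10.9 and 19.3 ± 9.45 CPM, log2 fold change −0.45 ± 0.38). For each of the 4 secondary granule genes, CD25_KO libraries 1 and 3 were below all WT libraries, and CD25_KO library 2 was above 3 of them.

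Counted over the 10 genes, 10 of 10 had a negative log2 fold change, which the choice fixed, with a median of −0.47, where 49.6% of all 18884 genes were negative and the median over all genes was 0.0033. For 0 of 10 was every CD25_KO library below every WT library, against 4.17% of all genes. CD25_KO library 3 was below every WT library for 10 of 10 (29.6% of all genes) and CD25_KO library 1 for 9 of 10 (28.2%), Ctsg being the exception. CD25_KO library 2 was below for 1 (Ctsg), CD25_KO library 4 for 0, and CD25_KO library 2 exceeded the WT mean for 8. Shares over all genes were not counted for CD25_KO libraries 2 and 4, so these counts have no background to be read against. The biological coefficient of variation of the 10 genes ran from 0.357 to 1.07, against a common value of 0.308.

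Without CD25_KO libraries 1 and 3, the median of the 10 log2 fold changes was 0.09 and 3 of 10 were negative, namely Elane (−0.32 ± 0.36), Lcn2 (−0.02 ± 0.36) and Ctsg (−0.01 ± 0.37). These libraries were left out as the low ones for these genes, so a smaller difference was fixed by that choice. Both CD25_KO libraries kept had Y-linked genes above 5 CPM, as only WT library 2 did among the WT libraries. Label and Y-linked status are therefore largely confounded in that contrast. Without WT library 2, Ngp and Ltf turned positive, at 0.10 and 0.07. With a term for the Y-linked status of a library, the median was −0.94, and −1.15 when WT library 2 was also left out. Y-linked genes summed to 0.0412 and 0.0401 CPM in CD25_KO libraries 1 and 3, to 0, 2.79 and 0.0717 CPM in WT libraries 1, 3 and 4, and to 483 CPM or more in the other 3 libraries. The part of Y-linked status in the result was not tested. A score, the mean deviation of log2 CPM from each gene's mean over the 8 libraries, differed by −0.51 among the libraries above 5 CPM of Y-linked genes (1 WT, 2 CD25_KO) and by −2.05 among the others (3 WT, 2 CD25_KO). The WT side of the −0.51 is WT library 2 alone, which also carried Xist (60.02 CPM) and was the highest library for 8 of the 10 genes.

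The granule classes were not low to the same degree in CD25_KO library 3. Summed CPM of the 4 primary granule genes was 19.6, 32.3, 23.2 and 19.7 in WT libraries 1 to 4 and 6.29, 26.8, 0.200 and 20.8 in CD25_KO libraries 1 to 4, a 161-fold range. Summed CPM of the 4 secondary granule genes was 132, 305, 139 and 171 in WT and 100.01, 258, 78.9 and 153 in CD25_KO libraries, a 3.87-fold range, and the range was 5.70-fold for S100a8 and S100a9. Per 100 CPM of the secondary class, the primary class stood at 14.9, 10.6, 16.7 and 11.5 in WT libraries and at 6.29, 10.4, 0.254 and 13.6 in CD25_KO libraries. CD25_KO library 3, and to a lesser degree library 1, were below the WT range of this ratio, library 2 was just below it and library 4 inside it.

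The class scores differed between the groups by −1.92 for the primary granule genes, −0.65 for the S100 genes and −0.45 for the secondary granule genes, and without CD25_KO library 3 the primary difference was −0.53. With libraries 1 and 3 of CD25_KO both left out, the 3 differences were 0.01, 0.13 and 0.13. The score over all 10 genes differed by −1.08, by −0.33 without CD25_KO library 3 and by 0.08 without libraries 1 and 3.

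**Figure D2:**
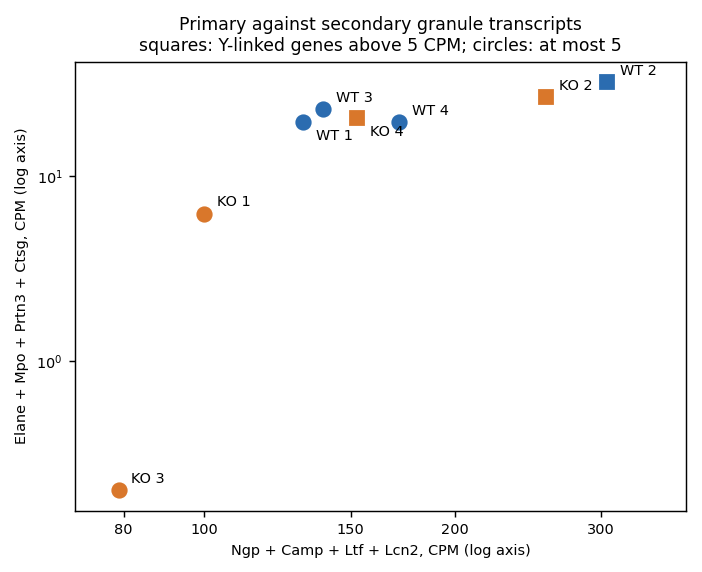
Summed CPM of the primary granule genes (vertical, log axis) against that of the secondary granule genes (horizontal, log axis) in each WT (blue) and labelled CD25_KO (orange) library; squares have Y-linked genes above 5 CPM. CD25_KO library 3 lies at 0.200 CPM on the vertical axis while keeping 78.9 CPM on the horizontal one, and CD25_KO libraries 2 and 4 lie among the WT libraries.

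With group means subtracted, log2 CPM of the members varied together over the 8 libraries, but among the primary granule genes this rested on CD25_KO libraries 1 and 3. Genes of the same class had a median Pearson r of 0.95 (13 pairs, 0.90 to 0.997) and genes of different classes one of 0.83 (32 pairs, 0.49 to 0.99). Primary with secondary granule genes gave the lowest values, with a median of 0.71 over 16 pairs, and S100 with secondary granule genes a median of 0.96 over 8 pairs. Without CD25_KO libraries 1 and 3 (6 libraries), the median among the 6 pairs of primary granule genes was 0.06, against 0.96 with all 8. It was then 0.95 among secondary granule genes (6 pairs), 0.97 between S100 and secondary granule genes and 0.59 between primary and secondary granule genes. All pairs share the same libraries, and no p is given.

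**Figure D3:**
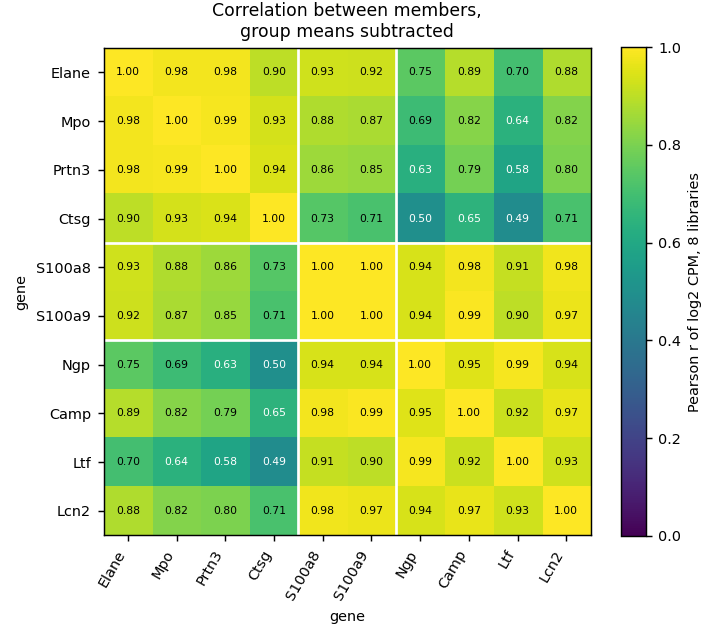
Pearson r (color, 0 to 1) between the log2 CPM of each pair of members over 8 libraries after each group mean was subtracted, with lines between the granule classes. Values are high within classes and between the S100 and secondary granule genes, and lowest, down to 0.49, between Ctsg and the secondary granule gene Ltf.

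Other genes of the neutrophil lineage were read from the same fit. Of 52 listed genes 49 were tested, 34 had a lower and 15 a higher mean in CD25_KO, and the median log2 fold change was −0.26. The quasi-likelihood test of edgeR called 0 of the 49 at an adjusted p of 0.05, as it called 0% of all genes, and DESeq2 also called 0 of them. At an unadjusted p of 0.05, 4 were lower (Cst7, Ctsc, Adam8 and Clec4e) and 1 higher (Irf8), against 7.11% lower and 5.53% higher of all genes.

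Of the other primary granule and promyelocyte genes, 10 of 11 tested had a lower mean (median log2 fold change −0.45), and Bpi was too low to test. Those highest per kilobase were Srgn, the proteoglycan core of granules, with 450 ± 30.0 CPM in WT and 392 ± 42.7 CPM in CD25_KO, then Lyz2, lysozyme, with 103 ± 34.7 and 77.2 ± 43.2 CPM, then Serpinb1a, an elastase inhibitor, with 133 ± 24.4 and 109 ± 17.7 CPM. Lyz2 had the library pattern of the members, with 21.7 CPM in CD25_KO library 3 against 83.8 to 155 CPM in WT. Cst7, a cystatin, had a log2 fold change of −1.02 ± 0.36, and Ctsc, the protease that activates granule serine proteases, one of −0.24 ± 0.10. In both genes CD25_KO library 2 lay inside the WT range and the other 3 CD25_KO libraries below it, and neither gene passed the adjusted threshold. In CD25_KO library 3, where Mpo and Ctsg had 0 counts, Srgn stood at 338 CPM, Ctsc at 143 CPM and Serpinb1a at 87.6 CPM. Which cells these transcripts came from was not tested.

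The other secondary and gelatinase granule genes were split, with 10 of 17 lower (median −0.27). Chil3 stood at 29.9 ± 11.7 CPM in WT and 23.8 ± 12.9 CPM in CD25_KO, and Retnlg at 10.6 ± 2.40 and 8.26 ± 5.65 CPM. Cybb, a subunit of the phagocyte oxidase that B cells also express, was at 104 ± 10.8 and 114 ± 10.4 CPM. Adam8 had a log2 fold change of −0.99 ± 0.39 and Slc11a1, a phagosomal metal transporter, one of 1.14 ± 0.74, which was 0.05 without CD25_KO library 2 (2.18 CPM, against 0.179 to 0.680 CPM in the other 7 libraries).

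Of the mature neutrophil receptors, 13 of 14 had a lower mean (median −0.37). Ly6g, the epitope gene of the neutrophil antibody 1A8, was at 1.17 ± 0.275 CPM in WT and 1.16 ± 0.955 CPM in CD25_KO. Fcgr3, a low-affinity IgG receptor, was at 5.74 ± 1.11 and 5.02 ± 2.52 CPM, and Trem3 at 1.21 ± 0.636 and 1.01 ± 0.620 CPM. Clec4e had a log2 fold change of −1.53 ± 0.59 and C5ar1, the C5a receptor, one of −1.34 ± 0.76.

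Of the granulocyte transcription factors 1 of 7 tested had a lower mean (median 0.35), and Cebpa and Cebpb were too low to test. Irf8, Myb and Spi1 are also expressed in B-lineage progenitors. Irf8 was at 225 ± 122 CPM in WT and 407 ± 87.8 CPM in CD25_KO (log2 fold change 0.85 ± 0.34), Myb at 319 ± 73.3 and 396 ± 55.4 CPM, and Spi1 at 47.9 ± 43.8 and 81.0 ± 35.8 CPM. Without WT library 4, Irf8 (1.27) and Spi1 (1.63) passed the adjusted threshold of edgeR, both narrowly at an adjusted p of 0.0493. That fit called 363 of 19506 genes, 358 of them higher.

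When CD25_KO libraries 1 and 3 were left out, the medians of these lists were −0.11 for the primary granule and promyelocyte genes (7 of 11 lower), 0.14 for the secondary and gelatinase granule genes (4 of 17), 0.09 for the receptors (6 of 14) and 0.36 for the transcription factors (0 of 7).

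**Figure D4:**
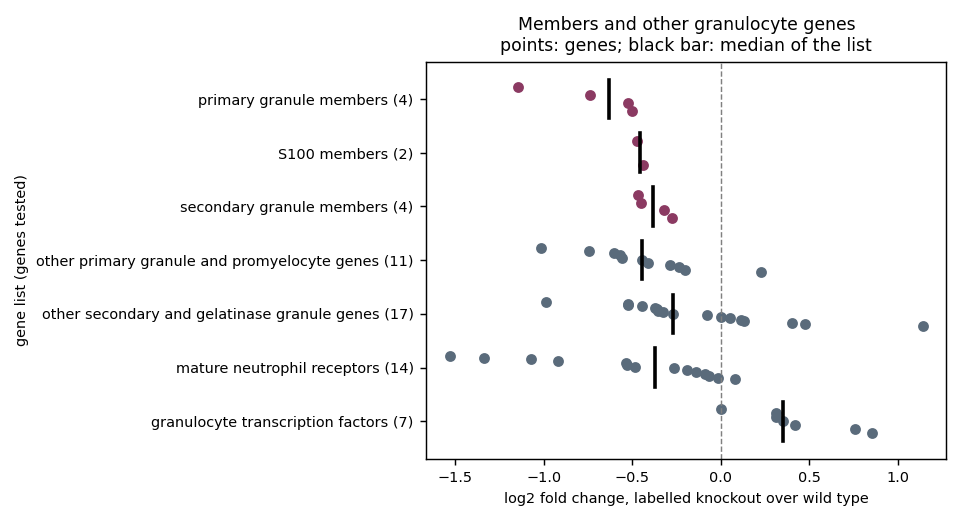
Log2 fold change of labelled CD25_KO over WT (horizontal) for the members by class and for the 4 lists of other granulocyte genes (vertical, tested genes in parentheses); points are genes and black bars list medians. The medians of the granule and receptor lists lie between −0.63 and −0.27 and that of the transcription factors at 0.35.

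Markers of several other marrow cells were also lowest in CD25_KO libraries 1 and 3. Summed CPM of 13 monocyte and macrophage markers was 59.9 to 96.7 in WT libraries and 33.7, 63.3, 23.7 and 69.6 in CD25_KO libraries 1 to 4. For 10 natural killer markers the sums were 32.9 to 47.4 and then 12.6, 29.7, 8.56 and 29.3, and for 5 megakaryocyte markers 3.39 to 10.7 and then 3.03, 10.4, 0.301 and 9.99. The 7 basophil and mast cell markers summed to 1.65 to 8.75 in WT and to 0.845, 3.61, 0 and 3.46 in CD25_KO. All 7, Mcpt8 and Prss34 among them, were at 0 in CD25_KO library 3. Only 3 of the 7 passed the filter on low counts, and 2 were also at 0 in a WT library. The share of all genes at 0 in CD25_KO library 3 was not counted. The part of these marrow cells in the result was not tested.

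Erythroid markers, mainly globins, summed to 2904 to 8649 CPM in WT and to 271, 1790, 896 and 2287 CPM in CD25_KO libraries, all 4 below WT. Eosinophil markers summed to 47.1 to 76.9 CPM in WT and 44.4 to 62.7 CPM in CD25_KO libraries, and T cell markers to 2.63 to 4.97 and 2.72 to 4.78 CPM. Prg3, with a mean of 40.9 CPM over the 8 libraries, made up most of the eosinophil sum, which thus mainly shows that gene. The eosinophil genes differed among themselves, as given under Other observations. Dendritic cell markers summed to 6.14 to 17.5 CPM in WT and 5.33 to 20.4 CPM in CD25_KO libraries. The 14 pro-B cell markers summed to 9480 to 11201 CPM in WT and 9651 to 11478 CPM in CD25_KO libraries, with CD25_KO library 3 the highest of all 8.

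The genes whose library pattern was most like the score over the 10 members, among 10337 others with a mean of at least 1 CPM, were Retnlg (r = 0.998), Svip (0.994), Kif20a (0.993), Pmf1 (0.992), Psat1 (0.991), Rdm1 (0.990), Ly6c2 (0.989), Pglyrp1 (0.988), Lyz2 (0.988) and Cdca3 (0.988). Likeness was measured as Pearson r over 8 libraries with group means subtracted, and 320 genes had an r of at least 0.9. Without CD25_KO libraries 1 and 3 there were 157 such genes, and the 10 named had r from 0.89 (Pglyrp1) to 0.99 (Retnlg). Retnlg, Pglyrp1 and Lyz2 are neutrophil or myeloid genes and Ly6c2 is a monocyte marker. Kif20a, a mitotic kinesin, stood at 93.0, 122.0, 95.9 and 102.4 CPM in WT libraries 1 to 4 and at 54.1, 82.6, 35.4 and 77.5 CPM in CD25_KO libraries 1 to 4. Unlike the members, Kif20a was lower in all 4 CD25_KO libraries than in any WT library. The same held for Pmf1, Psat1 and Rdm1 among the 10 named, and for 4.17% of all genes tested.

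The genes beside the members did not share their pattern in general. Within 50 kb of a member lay 30 other tested genes, of which 10 had a lower mean in CD25_KO, with a median log2 fold change of 0.08 and a median r with the member of −0.15, or 0.08 without CD25_KO libraries 1 and 3. S100a6, another S100 gene, had the highest r (0.91 with S100a8). Plppr3, which shares its span with Prtn3, had an r of −0.60 with it.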

How the data were processed

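RNA from 8 mouse pro-B cell samples (4 CD25_KO, 4 WT) was isolated with Trizol and made into libraries with a SMARTER mRNA-Seq kit, per the labels. The authors deposited a table of raw fragment counts by gene. Per the file headers they come from featureCounts 2.0.1 in paired mode over GENCODE M25 exons, with multi-mapping fragments counted and no strand setting, so near-identical copies and antisense genes cannot be told apart. Exon length per gene (unit: other) was also deposited by the authors. STAR 2.7.7a, GATK 4.1.9.0 and the mm10 build are named in the submitters' processing notes, which do not say what GATK did. Gene names came from GENCODE M21 on GRCm38, which named 55227 of 55487 genes. No library was a copy of another (chi-square at least 29.5 per degree of freedom in all 12 pairs within groups).

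Genes were filtered with filterByExpr, scaled with TMM and tested with edgeR 4.0.16 in R 4.3.3 (glmQLFit, robust; glmQLFTest, two-sided; genotype only; Benjamini-Hochberg adjustment over 18884 genes, threshold 0.05). CPM are TMM-scaled counts. Errors are SD over libraries or the SE of the log2 fold change. Scores use log2 CPM with a prior count of 2. The method was tested on simulated data. Alternatives were DESeq2 1.42.0 and its size factors, limma-voom with quality weights (limma 3.58.1), no filter, a prior count of 0.5, a replicate block, medians in place of means in scores and leaving out libraries; terms for Y-linked status and the counts of members and list genes and the correlations without CD25_KO libraries 1 and 3 were added after seeing the data.

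The members and lists were chosen with earlier results of these data known. Named were all members, and from each list of other neutrophil genes the 3 highest per kilobase and the 2 with the smallest unadjusted p. Also named were the 10 genes most like the member score, leaving out receptor segments, predicted genes and pseudogenes, and genes within 50 kb of a member; other names were chosen after their values were seen.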

Additional observations from a re-analysis of the deposited data

Results flagged for a closer look

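In 56 groups of 4 libraries tested for a value far from the rest, 2 were found, and chance gives about 1 in 20. Prtn3 in WT library 1 was at 2.82 CPM, with the other 3 WT libraries between 3.63 and 3.66 CPM. The summed monocyte and macrophage markers in WT library 2 were at 96.7 CPM, with the other 3 WT libraries between 59.9 and 61.9 CPM; the same library was the highest of all 8 for 8 of the 10 granule transcripts.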

How the results depend on the processing

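The number of genes called was 0 and became 4 with DESeq2 (Egln3, Aoc2 and Dusp6 higher, Ccdc82 lower), 108 (8 higher) with a sex term and without WT library 2, and 0 to 363 when each library was left out in turn, 363 (358 higher) without WT library 4. Other neutrophil genes called were 0 to 2 in the same series, 2 without WT library 4. Members with a lower mean numbered 10, but 3 without CD25_KO libraries 1 and 3, and 8 to 10 over single libraries left out. The score over the 10 members differed by −1.50 to −0.33 when single libraries were left out. The replicate block called 0 genes (3057 at an unadjusted p of 0.05, against 2388 without it); libraries with the same number correlated at −0.03 to 0.64 and 3 of 8 correlated best with their own number, so the numbers were not taken as a pairing. Without CD25_KO libraries 1 and 3 the primary minus secondary score differed by −0.12, against −1.46 with all libraries; the cause was not tested. DESeq2 size factors, no filter and limma-voom kept 10 of 10 members lower and 0 genes called. Counts of 0 to 5 limit the primary granule genes in CD25_KO library 3.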

Other observations

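The eosinophil granule genes differed among themselves over the libraries, and 6 of 7 tested eosinophil markers had a lower mean in CD25_KO. Prg3, which encodes eosinophil major basic protein 2, stood at 26.3, 33.1, 46.3 and 60.4 CPM in WT libraries 1 to 4 and at 36.6, 44.6, 39.0 and 40.8 CPM in CD25_KO libraries 1 to 4. Epx, which encodes eosinophil peroxidase, stood at 1.59, 0.300, 0.379 and 0.376 CPM in WT and at 0, 0.605, 0 and 0.595 CPM in CD25_KO libraries, and Ear2 at 0.560 to 1.17 CPM in WT and at 0.0619, 0.953, 0.281 and 1.08 CPM in CD25_KO libraries, so that both were lowest in CD25_KO libraries 1 and 3. CD25_KO library 3, with 0 counts of Epx, Mpo and Ctsg, held 39.0 CPM of Prg3 and 5.45 CPM of Prg2.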
